A study of Mus musculus with 18 samples.

Results

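The comparison described here is the genotype difference in the change of gene expression between reloading and control in mouse gastrocnemius, the large calf muscle. It was computed for each gene as reloading minus control in Zfp697 mKO muscle, minus reloading minus control in flox/flox muscle. A negative value therefore means that the gene's change was lower in mKO. It used 12 of the 18 libraries of the series, 3 in each of 4 groups: mKO muscle reloaded for 3 days, flox/flox muscle reloaded for 3 days, mKO control muscle and flox/flox control muscle. The other 6 libraries, from muscle unloaded for 10 days, entered the low-count filter, the scaling and the estimate of the spread between libraries. They also served for the change from unloading to reloading, given at the end of the results. All mice were C57BL/6 females. The labels give mKO as the genotype without stating the exons removed, the promoter driving the recombinase or the age of the mice. The flox/flox mice carry the loxP-flanked alleles, and cells in muscle other than the fibres may keep the gene in mKO mice. Whether each library is a separate animal is not given in the labels, and p-values therefore describe the spread among these libraries, which may be technical.

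Hindlimb unloading takes body weight off the calf muscles, and reloading returns it. Muscle that bears weight again after disuse is known for fibre strain, entry of monocytes and macrophages, division of interstitial and satellite cells, and deposition of matrix. Zfp697 encodes a zinc finger protein. An interaction of this kind asks whether genotype and loading act on a gene independently on the log scale, which neither a change within a genotype nor a difference at a single condition can answer.

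The 12 libraries held 45069595 to 51592566 counts each, and 22363 to 23418 genes had at least 1 count in a library. Fibre genes were high in every library, for example Acta1 (skeletal alpha-actin) at 23724 to 37924 CPM and Ckm (muscle creatine kinase) at 7705.0 to 11991 CPM. CPM are library-size-normalised counts, scaled by trimmed-mean (TMM) factors. These factors were 0.952 to 1.046 in mKO reloading, 1.065 to 1.095 in flox reloading, 0.964 to 0.997 in mKO control and 0.975 to 0.984 in flox control, so the scaling moved with the groups compared. With total counts in place of TMM, the median interaction over all tested genes was -0.13 log2, against 0.01 with TMM.

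Zfp697 (ENSMUSG00000050064, GRCm38 chromosome 3, 98382461 to 98753812, plus strand) had 1.6, 1.95 and 1.48 CPM in mKO reloading and 2.79, 2.33 and 2.57 CPM in flox reloading. It had 1.05, 1.31 and 1.25 CPM in mKO control and 1.0, 0.984 and 1.6 CPM in flox control. At reloading the mKO libraries lay below all flox libraries, and at control the genotypes overlapped. The interaction was -0.62 ± 0.36 log2 (SE; 95% interval -1.39 to 0.14) and did not pass the test (adjusted p = 0.496). The 45 to 137 reads counted per library come from all exons and all cell types, so they do not test the genotype labels.

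The size of the change as a whole was smaller in mKO. To compare it, 3658 genes were chosen by a fit of condition alone, without genotype, of which 1944 were higher and 1714 lower at reloading. Signed so that the shared direction is positive, the median change was 0.30 log2 in mKO and 0.55 log2 in flox, a ratio of 0.557. The change was smaller in mKO for 3059 of these genes (83.6%). The median difference, mKO minus flox, was -0.22 log2 (exact permutation test over 400 relabellings, two-sided p = 0.035). With total counts it was -0.25 log2 (exact permutation p = 0.06). Leaving out one library at a time gave -0.29 to -0.19 log2 with p of 0.025 to 0.14, and the p was 0.05 or more without mKO reloading replicate 1 or 3, any flox reloading library, mKO control replicate 2 or flox control replicate 2 or 3.

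The smaller change was seen among rising and falling genes alike. Genes higher at reloading had a median change of 0.34 log2 in mKO and 0.69 log2 in flox. Genes lower at reloading had a signed median of 0.28 log2 in mKO and 0.46 log2 in flox. Nearly all of the difference lay at the reloading end, where the signed mKO minus flox median was -0.20 log2, against 0.02 log2 at control. Placed by their median signed difference from the mean of the 6 controls, mKO reloading libraries lay at 0.28, 0.44 and 0.24 log2 and flox reloading libraries at 0.55, 0.57 and 0.48 log2. The reloading groups did not overlap, and mKO reloading replicate 2 was the mKO library nearest to flox. Controls lay between -0.05 and 0.03 log2.

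**Figure D1:**
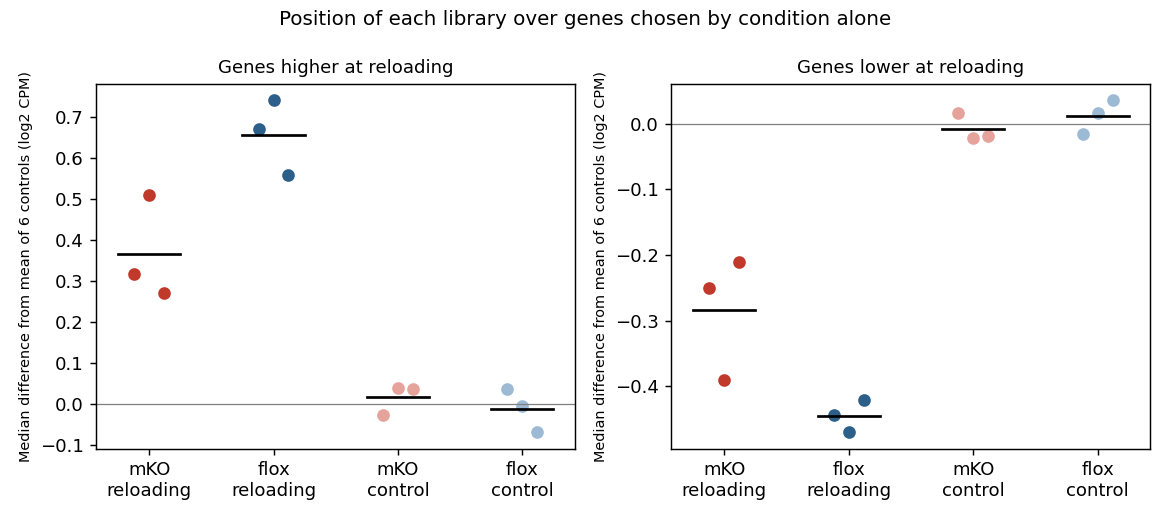
Median log2 CPM difference of each library from the mean of the 6 controls, over the 1944 genes higher at reloading (left) and the 1714 lower (right), with 1 point per library and a bar at the mean of 3. The mKO reloading libraries lie between the controls and the flox reloading libraries in both panels.

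In single genes, the interaction passed an adjusted p under 0.05 (edgeR's quasi-likelihood F test, Benjamini-Hochberg over 17833 tested genes) in 93 genes, 0.522% of those tested. Of these, 89 were lower in mKO (0.499%) and 4 higher (0.0224%). In the lower group the median interaction was -1.58 log2 (range -4.33 to -0.48). The number of calls depended strongly on single libraries. It was 0 without flox reloading replicate 1 (2392 genes at an unadjusted p under 0.05), 4 to 6 without mKO reloading replicate 1 or 3 or flox reloading replicate 2, and 6 to 12 without mKO control replicate 2 or 3 or any flox control library. It was 448 without mKO reloading replicate 2. With all libraries 2364 genes (13.3%) had an unadjusted p under 0.05. All 93 genes kept their sign and an unadjusted p of 0.00142 or less without each of the 12 libraries, and the median ratio of their log2 values to those with all libraries was 0.948 to 1.05. The 93 were chosen by the fit of all libraries, which shares most libraries with each of these fits. Kept signs and small p are therefore no separate support for the calls. Without flox reloading replicate 1, then, none of the calls below passed the adjusted threshold, and all of them kept their direction.

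The 89 lower genes were mostly genes that rose in flox muscle and changed less in mKO. Since these genes were chosen by the interaction, their 4 component values are a description and carry no test. Their median change was 0.20 log2 in mKO and 1.6 log2 in flox. The change passed upward in 9 and downward in 1 of them in mKO, against 1.34% and 0.841% of all tested genes (2.18% in either direction). In flox it passed upward in 88, against 12.3% of all tested genes (22.6% in either direction). In mKO 65 had a positive and 24 a negative change. The median mKO minus flox difference was -1.17 log2 at reloading and 0.32 log2 at control. At reloading the difference passed downward in 88 of the 89, against 3.85% of all tested genes (4.91% in either direction). The difference at control was positive in 82 of the 89, against 8952 of all 17833 tested genes. Even so, the test of mKO against flox at control called 0 genes by edgeR (718 at an unadjusted p under 0.05, 4.03%) and 0 by DESeq2. In 88 of 89 the reloading end was the larger, against 11397 of all 17833 tested genes. In 88 of 89 all mKO reloading libraries lay below all flox reloading libraries, against 2281 of all 17833 tested genes (12.8%).

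**Figure D2:**
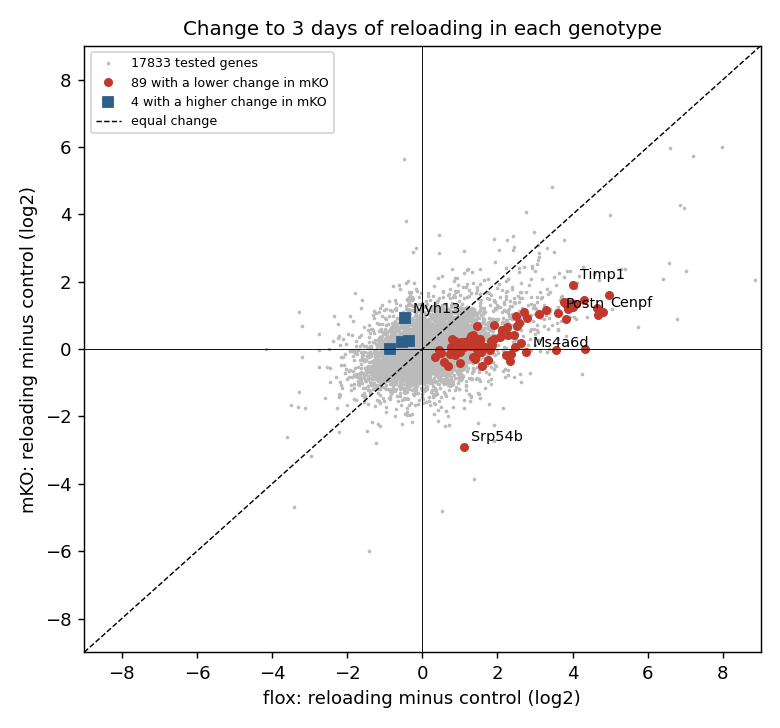
Log2 change from control to reloading in mKO (vertical axis) against flox (horizontal axis) for 17833 tested genes, with the 89 genes of lower and 4 of higher change in mKO marked. Most of the 89 lie to the right of 0 in flox and near 0 to 2 in mKO, below the dashed line of equal change.

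**Figure D3:**
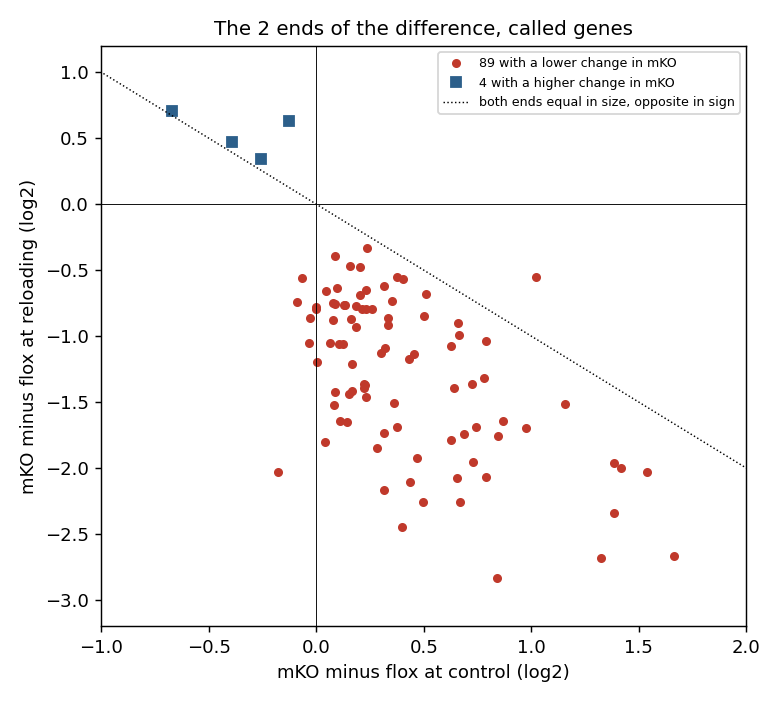
Log2 difference of mKO minus flox at reloading (vertical axis) against the same at control (horizontal axis) for the 93 genes that passed the interaction test. The 89 lower genes sit below 0 at reloading, and 82 of them sit above 0 at control.

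Genes of the cell division cycle were the list with the most called members. Of 32 tested cell cycle genes all 32 had a negative interaction, with a median of -1.73 log2 against 0.01 over all tested genes, and 12 passed downward (0.499% of all tested genes did so). The 12 were Cenpf, Ccnb1, Mki67, Top2a, Ccna2, Birc5, Kif23, Tpx2, Prc1, Tyms, Kif20a and Rrm2. The list's median change was 0.76 log2 in mKO, where 4 members rose (1.34% of all tested genes did), and 2.52 log2 in flox, where all 32 rose (12.3% of all tested genes did). The summed level of the list was 101 to 123 CPM in mKO reloading, 213 to 269 CPM in flox reloading, 77.7 to 93.5 CPM in mKO control and 70.8 to 80.6 CPM in flox control. Bulk RNA cannot tell fewer cells of a type from less RNA per cell. With total counts 20 members passed, by DESeq2 21 and without mKO reloading replicate 2 18. Only 2 or 3 passed without mKO reloading replicate 1 or 3, flox reloading replicate 2 or mKO control replicate 2 or 3. Without any one flox control library 2 to 4 passed. Without flox reloading replicate 1 no member passed, while the median stayed between -1.90 and -1.6 log2 without any single library.

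Mki67 (ENSMUSG00000031004, chromosome 7, 135689784 to 135716361, minus strand), which encodes the proliferation antigen Ki-67, had 7.06, 5.70 and 5.31 CPM in mKO reloading and 29.3, 26.3 and 20.2 CPM in flox reloading. In controls it had 1.67, 2.82 and 2.12 CPM in mKO and 1.47, 1.44 and 0.900 CPM in flox. The reloaded groups were far apart, while each mKO control library exceeded each flox control library. Mki67 rose by 4.31 ± 0.42 log2 in flox (adjusted p = 3.91e-06), had a change of 1.45 ± 0.38 log2 in mKO (adjusted p = 0.0542) and an interaction of -2.86 ± 0.55 log2 (adjusted p = 0.0342).

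Ccna2, cyclin A2 of S phase and G2, had 2.01, 1.53 and 0.983 CPM in mKO reloading and 7.49, 7.43 and 4.20 CPM in flox reloading, against 0.515, 0.704 and 0.571 CPM in mKO control and 0.362, 0.394 and 0.383 CPM in flox control. It rose in both genotypes, by 1.33 ± 0.28 log2 in mKO (adjusted p = 0.0192) and by 4.06 ± 0.29 log2 in flox (adjusted p = 6.08e-07). The interaction was -2.73 ± 0.41 log2 (adjusted p = 0.0129).

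Cenpf, a kinetochore protein of dividing cells, had 0.868, 1.23 and 0.738 CPM in mKO reloading and 4.65, 5.63 and 4.16 CPM in flox reloading, with 0.258, 0.684 and 0.381 CPM in mKO control and 0.192, 0.0875 and 0.225 CPM in flox control. Its interaction was -3.73 ± 0.65 log2 (adjusted p = 0.0276). Top2a, the topoisomerase that untangles replicated chromosomes, had 5.07, 4.43 and 2.56 CPM in mKO reloading and 20.9, 22.1 and 14.7 CPM in flox reloading, with 1.01, 2.37 and 1.69 CPM in mKO control and 1.36, 1.25 and 0.990 CPM in flox control. Its interaction was -2.76 ± 0.53 log2 (adjusted p = 0.0342). In both genes the reloaded genotypes did not overlap, and the flox reloading libraries were the highest of all.

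Ccnb1 (cyclin B1), Ncapg (a condensin subunit), Cep55 (an abscission protein) and Pclaf (a PCNA-binding factor) had interactions of -3.67 ± 0.73, -3.42 ± 0.64, -3.35 ± 0.68 and -2.93 ± 0.61 log2 (adjusted p of 0.0345, 0.0342, 0.0345 and 0.0377). At reloading all 4 were at 1.31 CPM or less in mKO and at 2.07 CPM or more in flox. In controls they and Cenpf, Nxpe5 and Ccl8 had only 2 to 38 counts per library, so the size of these log2 values is imprecise. Cdk1, the mitotic kinase, had 1.69, 1.31 and 0.922 CPM in mKO reloading and 5.51, 5.13 and 3.74 CPM in flox reloading, and its interaction of -2.39 ± 0.66 log2 did not pass (adjusted p = 0.102). Foxm1, a transcription factor of mitotic genes that was chosen after its values were seen, had 1.28, 1.16 and 1.23 CPM in mKO reloading and 5.02, 5.13 and 3.76 CPM in flox reloading, with an interaction of -2.39 ± 0.50 log2 (adjusted p = 0.038).

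Promoters of mitotic genes commonly carry CCAAT boxes, bound by NF-Y, and the cell cycle homology region (CHR), and promoters of interferon-induced genes carry an interferon-stimulated response element (ISRE). Windows of 250 bases before to 50 bases after each RefSeq gene start (GRCm38.p6) were read for these letters on both strands. Of the 93 genes, 72 matched, with 87 windows. TTTGAA (CHR) was in 60.0% of the 10 windows of 9 called cell cycle genes, in 26.4% of the windows of all called genes and in 17.9% of 32851 windows of all genes. CCAAT was in 80.0%, 46.0% and 37.4% of the same windows. The ISRE letters, TTTC and TTTC with 2 bases between them, were in 9.2% of the windows of called genes and 3.44% of all windows. The AP-1 letters TGANTCA were in 3.45% of the windows of called genes and 7.81% of all windows. These shares describe letters and show no binding.

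Cenpf, Mki67 and Top2a are shown as called cell cycle genes described above whose windows hold both motifs. Isg15 is shown because it is the called member of the interferon response list. All 4 are on the minus strand and are printed 5′ to 3′, with CHR, CCAAT or, in Isg15, overlapping ISRE matches in capitals on either strand. The windows are chr1:189688037-189688336 for Cenpf, chr7:135716330-135716629 for Mki67, chr11:99024140-99024439 for Top2a and chr4:156200769-156201068 for Isg15.
Cenpf: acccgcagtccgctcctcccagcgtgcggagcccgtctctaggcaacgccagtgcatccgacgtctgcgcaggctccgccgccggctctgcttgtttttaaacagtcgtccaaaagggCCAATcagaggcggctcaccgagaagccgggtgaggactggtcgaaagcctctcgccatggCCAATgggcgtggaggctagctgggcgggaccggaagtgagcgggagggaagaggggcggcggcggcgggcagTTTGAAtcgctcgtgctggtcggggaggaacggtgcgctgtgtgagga
Mki67: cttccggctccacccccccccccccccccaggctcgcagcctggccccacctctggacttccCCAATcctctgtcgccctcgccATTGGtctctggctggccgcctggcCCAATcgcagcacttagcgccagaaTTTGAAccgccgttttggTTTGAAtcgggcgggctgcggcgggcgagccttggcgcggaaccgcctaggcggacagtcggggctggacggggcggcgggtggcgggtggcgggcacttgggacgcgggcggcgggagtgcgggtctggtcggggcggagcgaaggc
Top2a: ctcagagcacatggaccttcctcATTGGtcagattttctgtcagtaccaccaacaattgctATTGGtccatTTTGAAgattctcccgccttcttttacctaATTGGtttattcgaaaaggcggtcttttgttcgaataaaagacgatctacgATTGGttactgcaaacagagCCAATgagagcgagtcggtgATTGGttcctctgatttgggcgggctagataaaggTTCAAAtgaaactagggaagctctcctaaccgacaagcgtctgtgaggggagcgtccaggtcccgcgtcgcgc
Isg15: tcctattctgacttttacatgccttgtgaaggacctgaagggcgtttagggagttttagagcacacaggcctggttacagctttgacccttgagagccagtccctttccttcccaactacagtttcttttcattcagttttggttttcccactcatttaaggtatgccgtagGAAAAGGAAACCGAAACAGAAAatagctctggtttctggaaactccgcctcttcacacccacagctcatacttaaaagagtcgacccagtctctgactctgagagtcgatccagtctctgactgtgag
In Cenpf the CHR letters lie just after the start, at bases 253 to 258 of the window, and in Mki67 they occur at bases 135 to 140 and 153 to 158. In Isg15, 3 overlapping ISRE matches span bases 173 to 194.

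Extracellular matrix genes formed another group in which flox changed more. Of 32 tested members 31 had a negative interaction, with a median of -0.64 log2. The interaction passed downward in 3, namely Postn, Timp1 and Col5a2, against 0.499% of all tested genes. This count was 9 with total counts, 10 by DESeq2 and 8 without mKO reloading replicate 2. It was 0 without mKO reloading replicate 1 or 3 or flox reloading replicate 1 or 2. Leaving out mKO control replicate 2 or flox control replicate 1 or 2 also gave 0. Without mKO control replicate 3 or flox control replicate 3 it was 1. The median change was 0.26 log2 in mKO, where 1 member rose (1.34% of all tested genes did), and 0.89 log2 in flox, where 26 rose (12.3% did). Postn (ENSMUSG00000027750, chromosome 3, 54361109 to 54391037, plus strand) encodes periostin, a matricellular protein of remodelling tissue. It had 71.8, 77.6 and 58.5 CPM in mKO reloading and 271, 354 and 268 CPM in flox reloading, against 30.3, 41.9 and 26.8 CPM in mKO control and 19.4, 22.9 and 30.9 CPM in flox control. The reloaded genotypes were well separated and the controls overlapped. The change was 1.07 ± 0.29 log2 in mKO (adjusted p = 0.0644) and 3.61 ± 0.32 log2 in flox (adjusted p = 2e-06), and the interaction was -2.54 ± 0.42 log2 (adjusted p = 0.0216).

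Timp1, an inhibitor of matrix metalloproteases, rose in both genotypes. It had 4.04, 5.34 and 4.02 CPM in mKO reloading and 10.4, 13.2 and 9.75 CPM in flox reloading, with 1.12, 1.37 and 1.08 CPM in mKO control and 0.745, 0.744 and 0.585 CPM in flox control. The genotypes were apart at both ends, mKO lower at reloading and higher at control. The rise was 1.91 ± 0.31 log2 in mKO and 4.0 ± 0.34 log2 in flox, with an interaction of -2.09 ± 0.45 log2 (adjusted p = 0.0452). Col5a2, a chain of fibrillar collagen V, had 88.9, 101 and 68.8 CPM in mKO reloading and 156, 198 and 133 CPM in flox reloading, with 58.5, 73.7 and 78.7 CPM in mKO control and 62.5, 54.6 and 50.2 CPM in flox control. Its interaction was -1.25 ± 0.24 log2 (adjusted p = 0.0342).

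The abundant collagens did not pass. Col3a1 had 714, 725 and 479 CPM in mKO reloading and 1179, 1559 and 1060.4 CPM in flox reloading, with an interaction of -1.44 ± 0.35 log2 (adjusted p = 0.0721). Col1a1 had 552, 659.9 and 529 CPM in mKO reloading and 501, 902 and 589.7 CPM in flox reloading, with an interaction of -0.40 ± 0.42 log2 (adjusted p = 0.758). Its genotypes overlapped at reloading. Tnc, tenascin-C, had an interaction of -1.65 ± 0.41 log2 (adjusted p = 0.0736). Outside the list, and chosen after their values were seen, Cthrc1, a secreted collagen-repeat protein, had an interaction of -2.48 ± 0.41 log2 (adjusted p = 0.0216), and Adam12, a membrane metalloprotease, -1.84 ± 0.40 log2 (adjusted p = 0.0452).

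Summed fibro-adipogenic progenitor markers, which mark the main matrix-producing interstitial cells, were 1598 to 1632 CPM in mKO reloading and 1385 to 1585 CPM in flox reloading, against 1784 to 2343 CPM in mKO control and 1914 to 2139 CPM in flox control. Of those 14 markers 0 passed in the interaction (edgeR; 1 by DESeq2; 7 had an unadjusted p under 0.05, against 13.3% of all tested genes) and none was at 0 in any library; their median was -0.29 log2. At reloading the sums were higher in mKO, but 11 of the 14 markers were lower in mKO, against 8783 of all 17833 tested genes. The median mKO minus flox difference at reloading was -0.27 log2. It passed downward in 3 markers and upward in 0, against 3.85% and 1.06% of all tested genes. The part of these markers in the matrix result was not tested.

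Macrophage and monocyte markers also changed more in flox. Of 26 tested markers 25 had a negative interaction, with a median of -1.16 log2. Ctss, C1qb and Mrc1, 3 of the 26, passed downward, against 0.499% of all tested genes, and 22 had an unadjusted p under 0.05, against 13.3%. The 3 became 12 with total counts, 14 by DESeq2 and 15 without mKO reloading replicate 2. They became 0 without mKO reloading replicate 1 or 3 or flox reloading replicate 1 or 2. Leaving out mKO control replicate 2 or 3 or any flox control library also gave 0. The median change was 0.06 log2 in mKO, where 1 marker rose (1.34% of all tested genes did), and 1.28 log2 in flox, where 23 rose (12.3% did). Summed markers were 208 to 297 CPM in mKO reloading and 433 to 634 CPM in flox reloading, with 181 to 269 CPM in mKO control and 219 to 233 CPM in flox control, and none was at 0 in any library. The mKO reloading sums thus lay partly within the range of the controls.

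Ctss, a lysosomal protease of antigen-presenting cells, had 9.37, 11.5 and 6.29 CPM in mKO reloading and 22.3, 29.5 and 21.9 CPM in flox reloading, with 7.90, 8.0 and 10.5 CPM in mKO control and 7.48, 8.03 and 8.31 CPM in flox control. The flox reloading libraries were above all others, which overlapped one another. The change was 0.04 ± 0.21 log2 in mKO (adjusted p = 0.954) and 1.63 ± 0.21 log2 in flox (adjusted p = 4.6e-05), with an interaction of -1.59 ± 0.30 log2 (adjusted p = 0.0342). C1qb, a chain of the complement initiator C1q made by macrophages, had 12, 16.3 and 10.3 CPM in mKO reloading and 28.6, 37.9 and 23.2 CPM in flox reloading, with an interaction of -1.38 ± 0.27 log2 (adjusted p = 0.0345). Mrc1, the mannose receptor of resident-type macrophages, had 38.1, 46.3 and 37.6 CPM in mKO reloading and 69.6, 84.3 and 58.2 CPM in flox reloading, with an interaction of -1.01 ± 0.20 log2 (adjusted p = 0.0345).

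Other defining markers did not pass. Cd68, a lysosomal glycoprotein of macrophages, had 10.4, 17.5 and 6.41 CPM in mKO reloading and 35.8, 39 and 31.2 CPM in flox reloading, with 2.62, 5.03 and 4.13 CPM in mKO control and 3.47, 4.31 and 3.78 CPM in flox control. It rose in both genotypes, by 1.54 ± 0.27 log2 in mKO (adjusted p = 0.00779) and 3.20 ± 0.28 log2 in flox (adjusted p = 2e-06), and its interaction was -1.66 ± 0.38 log2 (adjusted p = 0.0551). Adgre1, which encodes F4/80, had an interaction of -1.55 ± 0.37 log2 (adjusted p = 0.0614), and Ccr2, the monocyte chemokine receptor, -1.07 ± 0.37 log2 (adjusted p = 0.195). Ms4a6d, a membrane protein of a family with close copies, so that its counts are uncertain, had 0.526, 1.25 and 0.635 CPM in mKO reloading and 3.61, 6.26 and 3.41 CPM in flox reloading, with an interaction of -2.85 ± 0.53 log2 (adjusted p = 0.0342).

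Complement and MHC class II lists, which overlap macrophage biology, had medians of -0.88 log2 over 17 members and -0.93 log2 over 7 tested members. In the complement list 1 gene passed, C1qb, against 0.499% of all tested genes passing downward. C1qb is also among the macrophage calls above. By DESeq2 4 complement genes passed, and 8 had an unadjusted p under 0.05, against 13.3% of all tested genes. In the class II list 0 passed (edgeR; 1 by DESeq2; 6 at an unadjusted p under 0.05, against 13.3%). H2-Aa, a class II chain, had 22.3, 18.9 and 17.5 CPM in mKO reloading and 34.1, 47.5 and 37.0 CPM in flox reloading, with 21.5, 32.9 and 31.7 CPM in mKO control and 32.6, 26.0 and 32.3 CPM in flox control (interaction -0.94 ± 0.27 log2, adjusted p = 0.125). Neutrophil and lymphocyte markers were scarce, with sums of at most 5.63 and 51.5 CPM in any of the 12 libraries. By edgeR 0 of 6 and 0 of 9 tested members passed, against 0.522% of all tested genes. An unadjusted p under 0.05 was reached by 1 and 0, against 13.3% of all tested genes. That 1 neutrophil marker had a positive interaction, while the list's median was -0.85 log2. The neutrophil marker Ly6g was at 0 in all 12 libraries.

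Interferon-stimulated genes all had negative interactions, from -2.01 to -0.05 log2 over 31 tested members, with a median of -0.59 log2. An unadjusted p under 0.05 was reached by 20, against 13.3% of all tested genes, and 1, Isg15, passed downward, against 0.499%. With total counts 5 passed, by DESeq2 6 and without mKO reloading replicate 2 4. The count was 0 without mKO reloading replicate 1 or 3 or flox reloading replicate 1 or 2. Leaving out mKO control replicate 2 or 3 or any flox control library also gave 0. The median change was 0.03 log2 in mKO, where 0 rose (1.34% of all tested genes did), and 0.69 log2 in flox, where 21 rose (12.3% of all tested genes did). Isg15, a ubiquitin-like modifier, had 1.39, 1.36 and 1.56 CPM in mKO reloading and 3.16, 3.30 and 2.41 CPM in flox reloading, with 1.22, 1.79 and 1.40 CPM in mKO control and 1.06, 0.765 and 0.720 CPM in flox control. The genotypes stood apart at both ends, in opposite directions. The interaction was -1.83 ± 0.37 log2 (adjusted p = 0.0345), of which -1.04 log2 came from reloading and 0.79 log2 from control.

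Among 26 tested cytokines and chemokines the median was -0.50 log2 and 1 passed downward, against 0.499% of all tested genes. This was Ccl8, a monocyte chemoattractant, with 0.868, 0.493 and 0.287 CPM in mKO reloading and 1.26, 3.35 and 2.07 CPM in flox reloading, and 0.386, 0.764 and 0.508 CPM in mKO control and 0.256, 0.262 and 0.0450 CPM in flox control. Its interaction was -3.57 ± 0.74 log2 (adjusted p = 0.038). Ccl2, the main ligand of Ccr2, had 0.411, 0.853 and 0.922 CPM in mKO reloading and 2.94, 2.82 and 1.46 CPM in flox reloading, and did not pass (-1.69 ± 0.68 log2, adjusted p = 0.279).

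**Figure D4:**
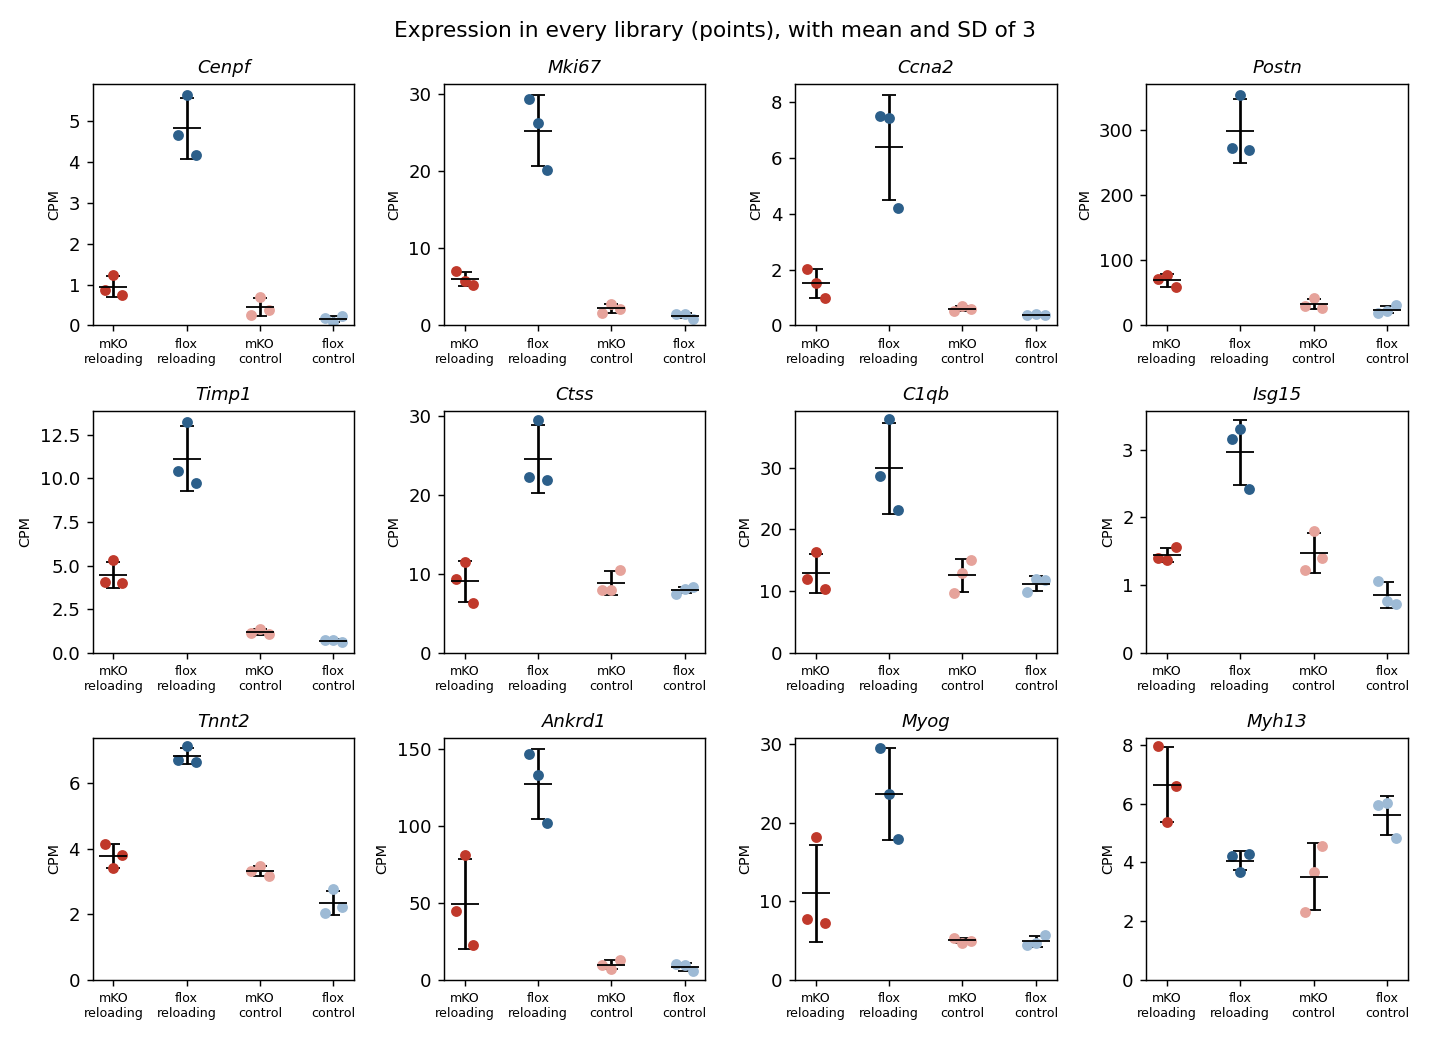
CPM of 12 genes in each library, with the mean and SD of 3 libraries as bars. In Cenpf, Mki67, Ccna2, Postn, Timp1, Ctss, C1qb, Isg15 and Tnnt2 all flox reloading libraries lie above all mKO reloading libraries, Ankrd1 and Myog have a wider spread in mKO reloading, and Myh13 runs the other way.

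Of 29 satellite cell and myogenic genes 1 passed downward, Tnnt2, against 0.499% of all tested genes, and the list's median interaction was -0.15 log2. Without mKO reloading replicate 2, 4 passed. In this list 0 passed without mKO reloading replicate 1 or 3 or flox reloading replicate 1 or 2. Leaving out mKO control replicate 2 or 3 or any flox control library also gave 0. Tnnt2, the cardiac and embryonic troponin T, had 4.14, 3.41 and 3.81 CPM in mKO reloading and 6.71, 7.11 and 6.65 CPM in flox reloading, with 3.33, 3.46 and 3.17 CPM in mKO control and 2.04, 2.76 and 2.23 CPM in flox control. Its interaction was -1.35 ± 0.26 log2 (adjusted p = 0.0342). Myog, the differentiation factor myogenin, had 7.70, 18.1 and 7.19 CPM in mKO reloading and 29.5, 23.6 and 17.9 CPM in flox reloading, and rose in both genotypes, by 1.14 ± 0.27 log2 in mKO (adjusted p = 0.0323) and 2.26 ± 0.27 log2 in flox (adjusted p = 1.77e-05). The mKO replicate 2 value slightly exceeded the lowest flox value, and the interaction was -1.13 ± 0.37 log2 (adjusted p = 0.176). Pax7, the satellite cell factor, had 4.89, 4.76 and 6.21 CPM in mKO reloading and 3.00, 4.43 and 4.52 CPM in flox reloading (interaction 0.24 ± 0.30 log2, adjusted p = 0.794).

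Over 16 tested genes of the neuromuscular junction and denervation the median interaction was 0.18 log2. Acetylcholine receptor genes among them did not pass, with Chrna1 at -0.50 ± 0.18 log2 (adjusted p = 0.217) and Chrnd at 0.26 ± 0.25 log2 (adjusted p = 0.724).

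Sarcomere strain and repair genes rose in both genotypes. Of 17 tested genes 10 rose in mKO, against 1.34% of all tested genes, and 15 rose in flox, against 12.3%, with medians of 1.08 log2 in mKO and 1.11 log2 in flox. In the interaction the median was -0.42 log2 and 0 passed (edgeR; 1 by DESeq2 and 2 without mKO reloading replicate 2). An unadjusted p under 0.05 was reached by 6, 5 of them lower in mKO, against 13.3% of all tested genes. Ankrd1, a titin-associated strain sensor, had 44.4, 80.8 and 22.8 CPM in mKO reloading and 146, 133 and 102 CPM in flox reloading, with 9.40, 7.16 and 13 CPM in mKO control and 10.0, 9.34 and 5.67 CPM in flox control. The mKO reloading libraries spread widely but lay below flox. The rise was 2.33 ± 0.38 log2 in mKO and 3.93 ± 0.41 log2 in flox, with an interaction of -1.6 ± 0.53 log2 (adjusted p = 0.176). Csrp3, a Z-disc protein, had 368, 611 and 178 CPM in mKO reloading and 936, 953 and 707 CPM in flox reloading, with an interaction of -0.45 ± 0.82 log2 (adjusted p = 0.873).

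Genes of energy metabolism had small positive interactions, with falls in flox and smaller changes in mKO. The medians were 0.25 log2 over 37 nuclear oxidative phosphorylation genes, 0.31 log2 over 26 genes of fatty acid oxidation and the TCA cycle and 0.23 log2 over 25 glycolysis and glycogen genes. With total counts they were 0.10, 0.17 and 0.09 log2. In all 3 lists 0 genes passed (edgeR; 9, 11 and 7 at an unadjusted p under 0.05, all higher in mKO, against 13.3% of all tested genes). Without mKO reloading replicate 2, in the same order, 5, 6 and 1 passed upward, and by DESeq2 0, 0 and 1. Oxidative phosphorylation genes fell in 2 of 37 cases in mKO, against 0.841% of all tested genes, and in 24 of 37 cases in flox, against 10.3% of all tested genes. Cox8b, a muscle subunit of cytochrome c oxidase, had 140.2, 102 and 126 CPM in mKO reloading and 94.3, 98.8 and 92.4 CPM in flox reloading, with 182, 171 and 168 CPM in mKO control and 181, 172 and 154 CPM in flox control (interaction 0.32 ± 0.13 log2, adjusted p = 0.29). Pygm, muscle glycogen phosphorylase, had 6826, 5688 and 6935 CPM in mKO reloading and 4397, 4551 and 5334 CPM in flox reloading (interaction 0.57 ± 0.17 log2, adjusted p = 0.141).

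The atrophy ligase gene Fbxo32 fell in both genotypes, by 1.06 ± 0.24 log2 in mKO (adjusted p = 0.0272) and by 1.38 ± 0.24 log2 in flox (adjusted p = 0.00049), and its interaction was 0.32 ± 0.33 log2 (adjusted p = 0.751). Klf15, a glucocorticoid-induced factor, had 24.7, 22.5 and 29.9 CPM in mKO reloading and 19.1, 19.1 and 20.6 CPM in flox reloading, with 42.8, 40.0 and 43.3 CPM in mKO control and 41.8, 46.7 and 46.5 CPM in flox control. Its interaction of 0.49 ± 0.13 log2 did not pass (adjusted p = 0.102).

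**Figure D5:**
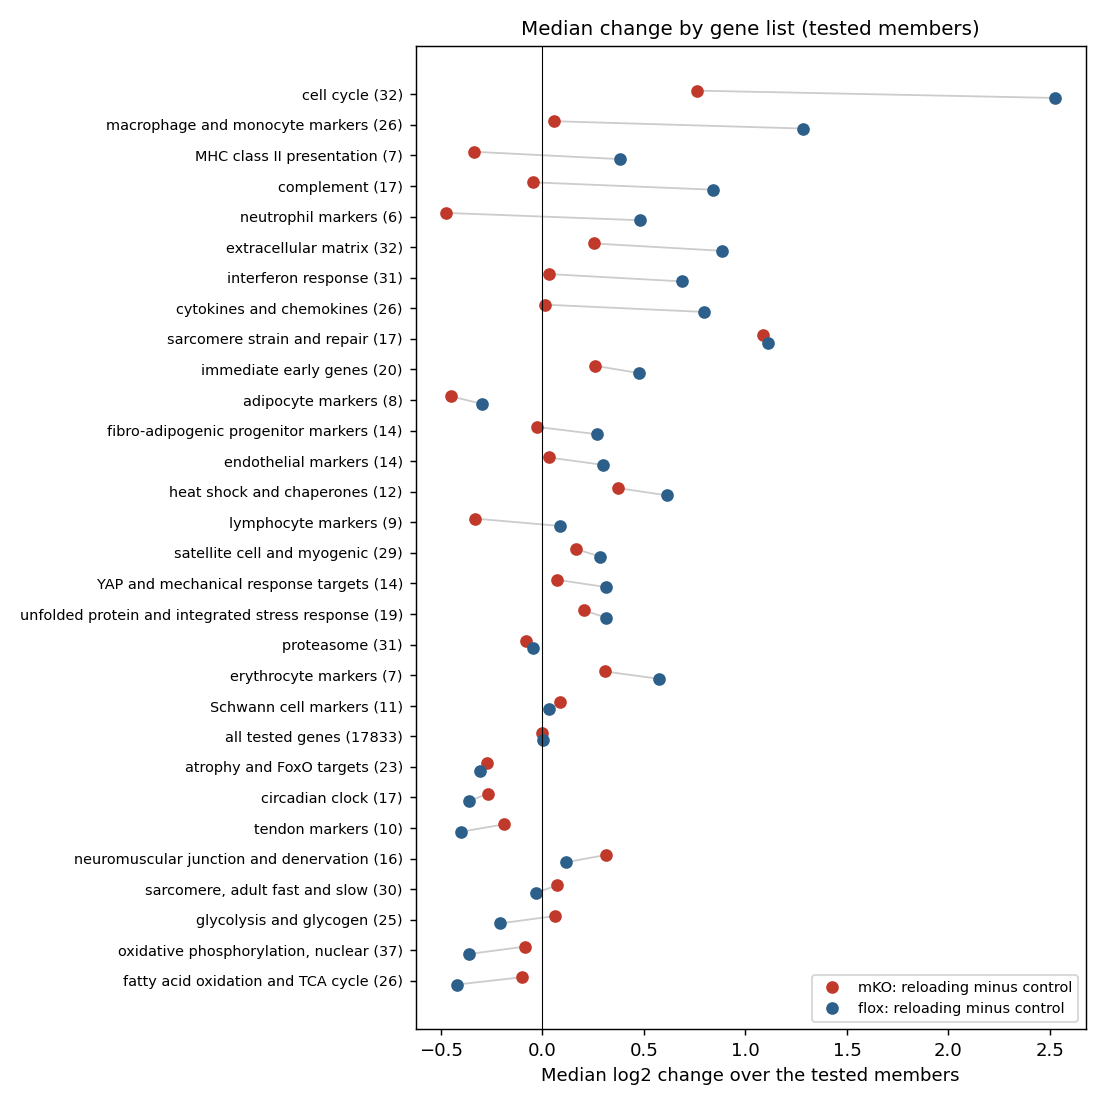
Median log2 change from control to reloading over the tested members of each gene list in mKO (upper point of each pair) and flox (lower point), ordered by the median interaction, with the number tested in brackets. The cell cycle list is farthest apart, at 0.76 in mKO and 2.52 in flox, and the metabolic lists at the bottom lie lower in flox.

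Of the 4 genes with a higher change in mKO, 3 fell in flox (Slc25a47, Rilp and Fastkd1) and 1 rose in mKO (Myh13). Myh13, an extraocular-type myosin heavy chain (chromosome 11, 67321658 to 67371586, plus strand), had 7.95, 5.38 and 6.60 CPM in mKO reloading and 4.20, 3.69 and 4.29 CPM in flox reloading, with 2.32, 3.66 and 4.57 CPM in mKO control and 5.96, 6.01 and 4.82 CPM in flox control. The genotypes did not overlap at either end and their order was turned round. By edgeR neither the difference at reloading (0.71 log2) nor that at control (-0.67 log2) passed. The gene was chosen by the interaction, so the order at the 2 ends is a description. Myh13 rose by 0.91 ± 0.20 log2 in mKO (adjusted p = 0.0269), had a change of -0.46 ± 0.20 log2 in flox (adjusted p = 0.11) and an interaction of 1.38 ± 0.29 log2 (adjusted p = 0.038). Myosin heavy chain genes are similar in sequence, and Myh4 stood at 39995 CPM or more, so the low counts of Myh13 are uncertain.

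Fastkd1, of a family that handles mitochondrial RNA, had 24.4, 22.7 and 23.5 CPM in mKO reloading and 17.7, 19.7 and 18.4 CPM in flox reloading, with 18.8, 21.2 and 20.3 CPM in mKO control and 22.9, 25 and 24.2 CPM in flox control. Again the order of the genotypes was opposite at the ends (interaction 0.60 ± 0.10 log2, adjusted p = 0.0223). The control difference of Fastkd1, -0.26 log2, did not pass by edgeR. Rilp, a Rab7 effector of lysosome transport, had 35.1, 37.0 and 40.4 CPM in mKO reloading and 23.1, 21.7 and 28.0 CPM in flox reloading (interaction 0.75 ± 0.16 log2, adjusted p = 0.044). Slc25a47, a mitochondrial carrier, had 5.58, 5.65 and 6.41 CPM in mKO reloading and 3.55, 4.13 and 5.02 CPM in flox reloading (interaction 0.87 ± 0.19 log2, adjusted p = 0.0452). With total counts Rilp and Slc25a47 no longer passed.

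Of the 93 genes, 71 were in none of the lists. Carhsp1, a small RNA-binding protein chosen after its values were seen, had 16.2, 18 and 15.8 CPM in mKO reloading and 26.8, 27.7 and 24.5 CPM in flox reloading, with 16.3, 15.4 and 16.8 CPM in mKO control and 16.5, 15.6 and 14.9 CPM in flox control. Only the flox reloading libraries stood apart, and the interaction was -0.70 ± 0.11 log2 (adjusted p = 0.0216). Cd44, the hyaluronan receptor, also chosen after its values were seen, had an interaction of -0.95 ± 0.19 log2 (adjusted p = 0.0345).

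Among the called genes the lowest interaction, -4.33 ± 0.87 log2 (adjusted p = 0.0345), belonged to Nxpe5, with 0.229, 0.796 and 0.287 CPM in mKO reloading and 2.49, 3.65 and 2.34 CPM in flox reloading. Among them Srp54b followed at -4.01 ± 0.74 log2 (adjusted p = 0.0342). It had 1.67, 1.0 and 1.35 CPM in mKO reloading and 12.3, 10.8 and 2.72 CPM in flox reloading, with 10.3, 8.55 and 11 CPM in mKO control and 7.82, 2.21 and 1.87 CPM in flox control. It was the one gene of the 89 whose change in mKO passed downward, flox libraries of one group differed widely, and its reads are shared with near-identical copies, so its values are uncertain.

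The change from unloading to reloading gave a different count from the same reloading libraries. Its interaction called 0 genes by edgeR (1873 at an unadjusted p under 0.05, 10.5%). The difference between both interactions, which equals the interaction from control to unloading, was itself tested and called 0 genes (733 at an unadjusted p under 0.05, 4.11%). For Mki67 the interaction was -2.86 log2 from control and -1.02 log2 from unloading (adjusted p = 0.592), and for Carhsp1 -0.70 and -0.71 log2 (adjusted p = 0.0671 from unloading).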

How the data were processed

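PolyA RNA of gastrocnemius was sequenced in 18 stranded libraries. The authors deposited unscaled counts, with the reads of all exons of a gene added up. Per the labels' processing notes STAR 2.7.3a, featureCounts 2.0.3 and GRCm38.p6 were used; per the file headers, featureCounts 1.6.4 and Ensembl release 94. No option for strand or shared reads is given, so antisense genes, overlapping genes and close copies are uncertain. The authors also deposited DESeq2 tables with log2 fold changes and p-values; 1 is described among the other observations and none was used for a call.

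Counts were scaled by TMM and tested with edgeR 4.0.16 (R 4.3.3, quasi-likelihood F test) on 1 model of 6 group means over 18 libraries, with 12 residual degrees of freedom. Of 54532 genes, 17833 passed edgeR's default low-count filter (a minimum count of 10). Symbols came from a reference table that matched 54409 genes. P-values were adjusted by Benjamini-Hochberg over the whole table and called under 0.05. The SE was derived from the log2 value and its F statistic. Library positions used log2 CPM with a prior count of 2. On simulated counts the interaction test recovered 68% of 2-fold and 98% of 4-fold differences in 200 of 17490 genes, and called 13 unchanged genes. The 200 were drawn from genes that averaged 1 CPM or more over the 18 libraries, so these shares do not cover rarer genes. Simulated counts were drawn for each gene separately, with no variation shared across genes in a library. The shares may therefore be too high for these data.

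Named genes were Zfp697, the 10 lowest and up to 10 highest interaction values among called genes that averaged 1 CPM or more in some group, and preset leads and called members of 29 lists; exceptions are marked, and some called genes are not reported here. The comparison, lists and leads were chosen with earlier results of these data known. Alternatives were RLE size factors, total counts, 2 other low-count filters, a replicate block, a model of the 12 libraries, DESeq2 1.42.0, another prior count, all tested genes in the size of the change, and leaving out each library. No pair of libraries looked like duplicates. Depth was 45069595 counts or more in each of the 18 libraries.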

Additional observations from a re-analysis of the deposited data

Results flagged for a closer look

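Each of the following results is listed because its change from control to reloading differed between mKO and flox by the interaction test, or, for the size of the change, by the exact permutation test. Interaction values are log2, mKO minus flox. In genes of cell division they were Cenpf -3.73, Ccnb1 -3.67, Ncapg -3.42, Cep55 -3.35, Pclaf -2.93, Mki67 -2.86, Top2a -2.76, Ccna2 -2.73 and Foxm1 -2.39. In matrix and matrix-related genes they were Postn -2.54, Timp1 -2.09, Col5a2 -1.25, Adam12 -1.84 and Cthrc1 -2.48. In macrophage, chemokine, interferon and adhesion genes they were Ccl8 -3.57, Ms4a6d -2.85, Ctss -1.59, C1qb -1.38, Mrc1 -1.01, Isg15 -1.83 and Cd44 -0.95. In the muscle gene Tnnt2 it was -1.35. In other genes they were Nxpe5 -4.33, Srp54b -4.01 and Carhsp1 -0.70. The positive values were Myh13 1.38, Slc25a47 0.87, Rilp 0.75 and Fastkd1 0.60. The median difference in the size of the change over genes chosen by condition was -0.22 log2, from -0.20 log2 at reloading and 0.02 log2 at control.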

How the results depend on the processing

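The size of the change (-0.22 log2 over 3658 genes chosen for changing with condition) kept its direction in all alternatives. It was -0.11 log2 over the 17465 genes of the alternative without that choice (exact permutation p = 0.02). It missed the threshold with total counts (-0.25 log2, exact permutation p = 0.06) and ranged from -0.29 to -0.19 log2 without single libraries. The interaction count of 93 was 284 with total counts (2 higher, 282 lower), 755 with no low-count filter, 158 with the filter of 1 CPM in 3 libraries and 420 by DESeq2, which called all 93. With the 12 libraries alone it was 112, of which 74 were among the 93. The interaction count ran from 0 to 448 without single libraries. The mKO change had 389 calls, 1216 with no filter, 884 by DESeq2, and 85 to 394 without single libraries (85 without mKO reloading replicate 2, and 125 to 156 without a control of mKO). mKO against flox at reloading had 875 calls (189 higher, 686 lower), 1485 with total counts (36 and 1449), 1557 with no filter, 1387 by DESeq2, and 127 to 1630 without single libraries. At control the count of 0 became 148 with no filter. The flox change had 4035 calls (2193 up, 1842 down) and 4539 with total counts (3652 and 887), and 2758 to 4215 without single libraries. The cause of these differences was not tested.

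Whether same-numbered replicates were paired is not settled by the data, and the main model has no replicate block. Correlations of deviations were low, with 2 of 18 same-numbered pairs over 0.1 (range -0.0744 to 0.126). Yet 11 of 12 libraries correlated best with their own number. With a replicate block the interaction called 143 genes, and the size of the change was -0.21 log2 (exact permutation p = 0.04). Over the 50 named genes, 0 of 950 alternative values changed sign, 247 fell short of the threshold and 39 came to pass it. The alternatives share most or all libraries with the main fit, so kept signs are no separate support. Of the 29 called genes, 29 passed with RLE, either filter, the block and DESeq2, 27 with total counts and 26 with the 12 libraries alone, where Myh13, Slc25a47 and Adam12 did not. Low control counts limit the precision of the rarest cell cycle genes.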

Other observations

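The authors' deposited table that is named for mKO reloading against control held 30881 genes, of which 427 had an adjusted p under 0.05 (92 higher, 335 lower). All 93 genes called in the interaction were below that threshold in the authors' deposited table, with the same sign. Across 13191 genes of at least 1 CPM, Spearman's rho of the log2 fold changes in the authors' deposited table was 0.957 with the interaction and -0.036 with the mKO change computed from the counts. Genes are not independent replicates, and the same libraries enter all of these values. For Zfp697 the authors' deposited table gives -0.09 log2 (adjusted p = 0.496), the log2 value being nearer 0 than the -0.62 of the fit to the counts.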
